A study of Mus musculus with 6 samples.

Results

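The genes described here are 10 transcription factor genes that respond early to stimulation: the Fos subfamily (Fos, Fosb, Fosl1 and Fosl2), the Jun subfamily (Jun, Junb and Jund), the zinc finger genes Egr1 and Egr2, and Atf3. They were taken by gene symbol from a count table of 54532 genes. Each symbol had 1 row, so that all 10 were found, and 8 of them had enough counts to be among the 12844 genes tested. The members were chosen by the family they belong to and by measured values, the differences between the Vdbp and empty-vector libraries, in which Fos was among the lower genes. For that reason their differences between the groups are given as a description, without p-values.

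The libraries came from DC2.4, an immature dendritic cell line of the mouse, in 2 groups of 3. The libraries labelled Vdbp came from cells transfected to overexpress the vitamin D-binding protein, and the empty-vector libraries from cells given the vector without it. The labels name pTT5 as the vector in both groups. Both groups were passaged 48 h after transfection and then kept under selection, and nothing in the labels says whether the 3 libraries of a group were separate transfections or cultures. P-values therefore measure the spread between these samples only, which may be technical.

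AP-1 is a dimer of basic leucine zipper proteins. Jun proteins can pair with each other or with Fos proteins, whereas Fos proteins need a Jun partner, and Atf3 can pair with Jun proteins. Egr1 and Egr2 bind GC-rich sites through zinc fingers. Genes such as Fos, Fosb, Egr1 and Egr2 are switched on within minutes by MAP kinase signalling, through serum response factor with its ternary complex partners and through CREB, and their messenger RNAs are short-lived. In myeloid cells these factors take part in the response to Toll-like receptor ligands and growth factors.

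The libraries held 15563800 to 16710975 counts. Gc, the gene that encodes the vitamin D-binding protein, had 0 counts in all 3 libraries labelled Vdbp and 0 counts in all 3 empty-vector libraries, so the groups are called by their labels. Of the 12 dendritic and myeloid marker genes, 9 were above 1 CPM (counts scaled to library size), and their summed level was 2010 to 2183 CPM with Vdbp and 2036 to 2112 CPM with empty vector. Flt3, H2-Aa and Ciita were at or under that level. The summed level of 5 T cell markers was 7.92 to 10.4 CPM with Vdbp and 6.68 to 8.63 CPM with empty vector, nearly all of it from Lck, with Cd3e and Cd3g at 0. B cell markers summed to 1.92 to 2.49 CPM with Vdbp and 2.27 to 3.19 CPM with empty vector, fibroblast markers to 1.12 to 2.17 and 1.54 to 2.25 CPM, and epithelial markers to 0.187 to 0.319 and 0.0591 to 0.181 CPM. GC-rich genes had higher levels in some libraries than in others, and the cause was not tested. As a measure of this, Spearman's rho was taken across the tested genes between GC content and how far a gene's log2 level in 1 library was from its mean. This GC trend was 0.75, −0.02 and −0.41 in Vdbp replicates 1, 2 and 3, and −0.08, −0.64 and 0.07 in empty-vector replicates 1, 2 and 3.

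Promoter sequences were looked up to show which letters of the known inputs lie in the windows around RefSeq starts of these genes. RefSeq windows on GRCm38.p6, from 250 bases before to 50 bases after an annotated start, were found for 8 of the 10 members, 12 windows in all because Egr2 has several starts. They were not found for Fosl1 and Egr1. The RefSeq start is not always that of the deposited table. It was the same base for Fos and Jun, 6 bases inside the gene for Fosb and 30 bases before it for Junb, but 671 bases inside the gene for Fosl2, 34706 bases inside it for Atf3, 1210 bases before it for Jund, and 2394 bases inside it for the Egr2 window shown. Shown first are Fos and Fosb, the 2 members with the largest differences between the groups, then Junb, whose window holds the same core. Egr2 follows, the only one of the 8 members with a window in which a serum response element was found. Elements further than 250 bases before a start lie outside the windows, so the other members may have one there. The Fos window is chr12:85473640-85473939 on the plus strand, that of Fosb chr7:19309996-19310295 on the minus strand, that of Junb chr8:84978699-84978998 on the minus strand, and that of Egr2 chr10:67537619-67537918 on the plus strand. Each is written 5′ to 3′ along the gene, with the motifs that were searched in capitals.
Fos: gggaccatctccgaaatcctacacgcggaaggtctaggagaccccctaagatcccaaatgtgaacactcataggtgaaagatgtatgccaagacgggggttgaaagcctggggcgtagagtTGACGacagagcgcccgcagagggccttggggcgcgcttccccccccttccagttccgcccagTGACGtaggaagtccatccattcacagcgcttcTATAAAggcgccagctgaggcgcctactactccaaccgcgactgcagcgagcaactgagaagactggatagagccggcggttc
Fosb: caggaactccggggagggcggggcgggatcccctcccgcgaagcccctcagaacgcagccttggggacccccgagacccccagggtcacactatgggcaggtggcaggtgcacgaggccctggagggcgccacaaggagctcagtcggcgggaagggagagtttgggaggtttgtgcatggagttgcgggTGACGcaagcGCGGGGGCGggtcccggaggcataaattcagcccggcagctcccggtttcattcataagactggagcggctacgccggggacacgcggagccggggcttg
Junb: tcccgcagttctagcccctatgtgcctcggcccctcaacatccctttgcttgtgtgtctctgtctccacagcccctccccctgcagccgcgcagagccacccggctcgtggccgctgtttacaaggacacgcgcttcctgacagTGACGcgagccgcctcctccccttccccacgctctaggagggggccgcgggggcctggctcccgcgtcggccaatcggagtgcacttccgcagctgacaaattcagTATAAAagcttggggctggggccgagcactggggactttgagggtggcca
Egr2: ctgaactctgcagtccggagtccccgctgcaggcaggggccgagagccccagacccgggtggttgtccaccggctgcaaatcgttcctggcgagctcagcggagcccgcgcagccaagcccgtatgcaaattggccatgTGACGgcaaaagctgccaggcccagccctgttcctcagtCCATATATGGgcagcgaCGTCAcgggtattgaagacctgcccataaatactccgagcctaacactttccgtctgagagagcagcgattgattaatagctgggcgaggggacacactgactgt

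In Fos the capitals mark 2 copies of TGACG, the core of the cAMP response element that CREB and ATF proteins can bind, starting at −129 and −66 from the RefSeq start, and a TATAAA box at −33. In Fosb they mark TGACG at −60 and, after a gap of a few bases, the Egr site GCGNGGGCG at −50. In Junb they mark TGACG at −106 and TATAAA at the RefSeq start itself. In Egr2 they mark TGACG on both strands, at −111 on the plus strand and at −55 on the other, and between them the CArG box of the serum response element at −72. Both strands were searched. TGACG was in 7 of the 12 member windows, which belong to Fos, Fosb, Junb, Egr2 and Atf3, and in 20.8% of all 32851 windows. Of the 7, 3 are overlapping windows of Egr2 that hold the same 2 copies. The CArG box was in 4 member windows, all of them starts of Egr2, of which 3 overlap, and in 1.63% of all windows. GCGNGGGCG was in the windows of Fosb and Fosl2 and in 5.55% of all windows, and TATAAA in those of Fos and Junb and in 13.6% of all. The full element TGACGTCA, which contains that core, was in none of the 12 and in 1.79% of all. The AP-1 site TGANTCA was in none of the 12 and in 7.81% of all, and the Ets core CCGGAA in 1 window, of Egr2, and in 14.9% of all. These counts describe letters in the windows and not bound sites.

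The members differed by about 3 orders of magnitude in level per length, and the Egr genes were close to silent in these cells. Per kilobase of gene, as FPKM in the deposited table, the mean over the 6 libraries was 87.7 for Junb (65.3 to 110.0), 74.4 for Atf3 (67.1 to 81.5), 56.5 for Jun (51.6 to 60.9), 37.6 for Jund (27.3 to 45.0), 24.2 for Fosl1 (21.8 to 29.7), 11.6 for Fos (6.88 to 15.7) and 9.22 for Fosl2 (8.16 to 10.4). Fosb followed at 0.441 FPKM (0.198 to 0.896), Egr1 at 0.118 (0.0931 to 0.142) and Egr2 at 0.0801 (0.0363 to 0.121). The ranges of Junb and Atf3, of Jund and Fosl1, of Fos and Fosl2, and of Egr1 and Egr2 overlapped, and no other neighbours in this order did. Per length, the 3 Jun genes and Atf3 were above all Fos genes, and Fosl1 was the highest of these. The place of Fosl1 rests on the scaling by length, since Fosl2 had 84.98 ± 6.64 CPM with Vdbp and 94.5 ± 5.84 CPM with empty vector, above Fosl1 at 42.5 ± 7.45 and 40.6 ± 3.59 CPM (SD, n = 3 each).

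**Figure D1:**
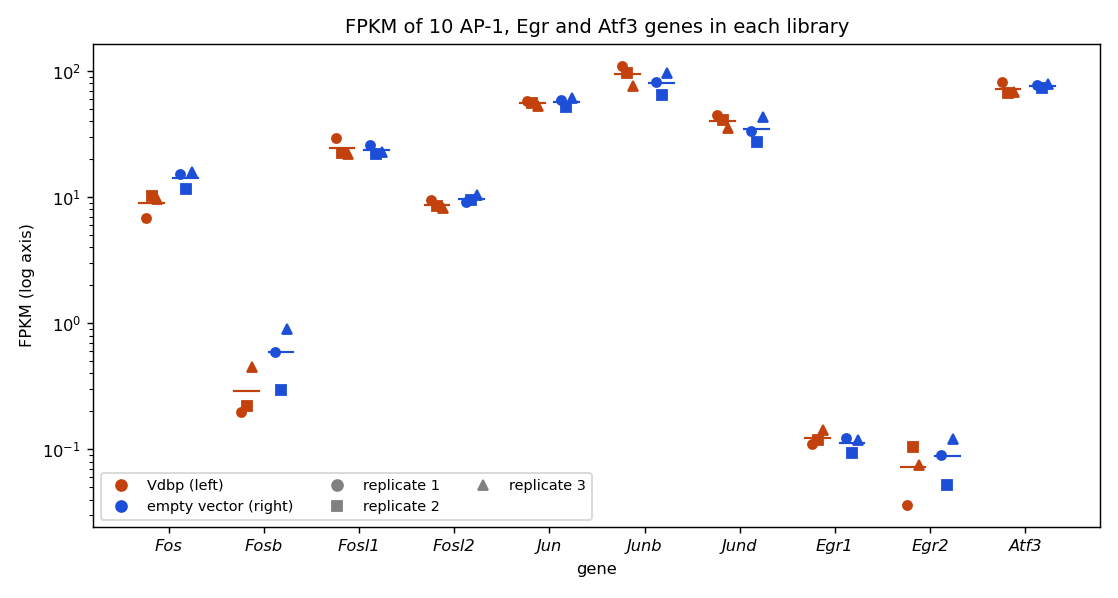
FPKM of each member (log axis) in the 3 libraries labelled Vdbp, left, and the 3 empty-vector libraries, right. Symbols give the replicate and bars the group mean. Junb, Atf3 and Jun are above 50 FPKM in every library, Egr1 and Egr2 are near 0.1, and the Fos points of the groups do not overlap.

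Fos was lower in all 3 libraries labelled Vdbp than in any empty-vector library. Fos encodes the inducible partner of Jun (ENSMUSG00000021250, chromosome 12, 85473890 to 85477273, plus strand, 4 exons; positions are those of the deposited table). It had 262, 407 and 355 counts, or 16.3, 24.3 and 22.7 CPM, in Vdbp replicates 1, 2 and 3, and 590, 461 and 628 counts, or 36.3, 27.8 and 37.1 CPM, in empty-vector replicates 1, 2 and 3. The highest Vdbp library, replicate 2, was below the lowest empty-vector library, also a replicate 2, by less than the SD within either group. The means were 21.1 ± 4.23 CPM with Vdbp and 33.7 ± 5.14 CPM with empty vector (SD, n = 3 each). The log2 fold change was −0.68 (SE 0.16, 95% interval −1.04 to −0.32), a ratio of 0.625 (0.488 to 0.802). Of the tested genes, 147 (1.14%) had a log2 fold change as low as or lower than this. Vdbp replicate 1, the lowest library, also had the highest GC trend. Without it the log2 fold change was −0.52.

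Fosb showed a lower mean but a wide spread. Fosb encodes FosB and a truncated form, which counts per gene cannot separate (ENSMUSG00000003545, chromosome 7, 19302696 to 19310051, minus strand). It had 20, 23 and 44 counts with Vdbp, or 1.24, 1.37 and 2.81 CPM, and 60, 31 and 95 counts with empty vector, or 3.69, 1.87 and 5.62 CPM, in replicate order. The groups overlapped, since Vdbp replicate 3 was above empty-vector replicate 2. The means were 1.81 ± 0.87 CPM with Vdbp and 3.73 ± 1.87 CPM with empty vector (SD, n = 3 each). Its log2 fold change was −1.05 (SE 0.40, interval −1.92 to −0.17). Its variation between libraries beyond counting error, as edgeR's biological coefficient of variation, was 31.2%, against 17.4% for the trend of genes at its level. Without empty-vector replicate 3, the highest library, the log2 fold change was −0.62, and without Vdbp replicate 3 it was −1.504. In both Fos and Fosb the lowest library was Vdbp replicate 1, the lowest empty-vector library was replicate 2 and the highest replicate 3.

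The Fos-related genes Fosl1 and Fosl2, whose proteins lack the transactivation domain of Fos, overlapped between the groups. Fosl1, which encodes Fra-1 (ENSMUSG00000024912, chromosome 19, 5447703 to 5455945, plus strand), was at 51.0, 38.7 and 37.6 CPM with Vdbp and at 44.6, 37.7 and 39.5 CPM with empty vector. Vdbp replicate 1 was the highest library, empty-vector replicate 1 the next, and the groups overlapped. The log2 fold change was 0.06 (SE 0.14, interval −0.23 to 0.36), and it was −0.09 without Vdbp replicate 1. Fosl2, which encodes Fra-2 (ENSMUSG00000029135, chromosome 5, 32135801 to 32157842, plus strand), was at 92.3, 83.3 and 79.3 CPM with Vdbp and at 89.5, 93.0 and 100.9 CPM with empty vector. Here Vdbp replicate 1 lay among the empty-vector libraries and the other 2 below all of them, with a log2 fold change of −0.15 (SE 0.10, interval −0.37 to 0.06) and −0.10 to −0.21 when 1 library was left out.

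Among the Jun genes, which are annotated with 1 exon each, all 3 overlapped between the groups, and Junb and Jund had their highest and lowest levels in the same libraries. Jun, the strong activator of the subfamily (ENSMUSG00000052684, chromosome 4, 95049034 to 95052222, minus strand), was at 188, 179 and 170.3 CPM with Vdbp and at 189, 167 and 195 CPM with empty vector (log2 fold change −0.04, SE 0.09, interval −0.24 to 0.17). The Vdbp libraries lay within the range of the empty-vector libraries, and without empty-vector replicate 3 the log2 fold change was 0.0097. Junb, a weaker activator that can oppose Jun (ENSMUSG00000052837, chromosome 8, 84974484 to 84978718, minus strand), was at 255, 221 and 177 CPM with Vdbp and at 188, 152 and 224 CPM with empty vector (0.21, SE 0.15, interval −0.12 to 0.55). Jund, the member most often expressed without stimulation (ENSMUSG00000071076, chromosome 8, 70698949 to 70700616, plus strand), was at 75.7, 68.2 and 59.5 CPM with Vdbp and at 56.2, 46.1 and 72.6 CPM with empty vector (0.22, SE 0.15, interval −0.12 to 0.55). In both genes Vdbp replicate 1 was the highest library and empty-vector replicate 2 the lowest, and the groups overlapped. Without these 2 libraries the log2 fold change was −0.051 for Junb and −0.015 for Jund. Leaving out empty-vector replicate 2 alone gave 0.082 for Junb and 0.074 for Jund, leaving out Vdbp replicate 1 alone gave 0.085 and 0.13, leaving out Vdbp replicate 3 alone gave 0.34 for Junb, and leaving out empty-vector replicate 3 alone gave 0.36 for Junb and 0.41 for Jund.

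The levels of Jun, Junb and Jund carry a limit from overlapping genes. Jun shares 689 bases with the antisense gene Junos, which had 92, 115 and 117 counts with Vdbp and 106, 82 and 110 with empty vector. Junb shares 351 bases with Prdx2, on the opposite strand, which had 3271, 2840 and 2743 counts with Vdbp and 2838, 2689 and 2843 with empty vector. Whether the counting used strand is not given in the sources used here, so reads of the shared bases may have been given to either gene or to neither. Jund, 1668 bases long, shares 919 bases with the antisense gene Gm11175, which had 0 counts in all 6 libraries. These 0 counts do not show whether reads of the shared bases were kept for Jund.

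Atf3, a stress-induced repressor that limits the transcription of inflammatory genes in myeloid cells (ENSMUSG00000026628, chromosome 1, 191170296 to 191218039, minus strand), was at 177, 145 and 147 CPM with Vdbp and at 167, 161 and 169.8 CPM with empty vector. The empty-vector libraries lay within the range of the Vdbp libraries. The means were 156 ± 18.1 CPM with Vdbp and 166 ± 4.34 CPM with empty vector (SD, n = 3 each). The log2 fold change was −0.09 (SE 0.10, interval −0.31 to 0.13). It was −0.19 without Vdbp replicate 1, the highest library, −0.038 without Vdbp replicate 2 and −0.046 without Vdbp replicate 3.

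Egr1 and Egr2, the zinc finger factors, were below the count filter and were not tested. Egr1 (ENSMUSG00000038418) had 8, 9 and 10 counts with Vdbp and 9, 7 and 9 counts with empty vector, which is 27 and 25 counts in all. The ratio of Vdbp to empty vector was 1.11, with an exact 95% interval from counting error alone of 0.619 to 1.99. Egr2 (ENSMUSG00000037868) had 2, 6 and 4 counts with Vdbp and 5, 3 and 7 with empty vector, a ratio of 0.821 (0.351 to 1.88). These depths could not show a difference smaller than those intervals, and both genes were detected in all 6 libraries. In bulk samples, fewer cells with a message and less of it per cell cannot be told apart.

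Counts over the members are set beside those over all genes. Of the 8 tested members, 5 had a log2 fold change below 0 (Fos, Fosb, Fosl2, Jun and Atf3), with a median of −0.06, against 51.3% of all tested genes and a median of −0.01. The members' median was −0.14 without Vdbp replicate 1, −0.11 without empty-vector replicate 2 and −0.13 with trends on length and base composition removed, but −0.024 without Vdbp replicate 3, −0.036 without Vdbp replicate 2 and −0.032 without empty-vector replicate 3. The median of all genes in these settings is not given here. edgeR's quasi-likelihood test with Benjamini-Hochberg adjustment over all 12844 genes called 0 members at an adjusted p under 0.05, and it called 0 genes in all (0%). With no filter on low counts, the only 1 of 18 alternatives to call a member, it called 2 members, Fos and Fosb, and 89 genes. How many genes that fit tested is not given here, so no share stands beside these counts. In the filtered fit, 2 members, Fos and Fosb, and 687 genes (5.35%) had an unadjusted p under 0.05. DESeq2 called 0 members and 11 genes (0.0856%), and had 2 members and 613 of 12844 genes at an unadjusted p under 0.05. The groups did not overlap in the lower direction for 1 member, Fos, and for 720 genes (5.61%), and in the higher direction for 0 members and 676 genes (5.26%). Because the set was drawn up with this contrast known, nothing is read from these counts. The median biological coefficient of variation was 12.8% over the members and 11.6% over all tested genes.

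**Figure D2:**
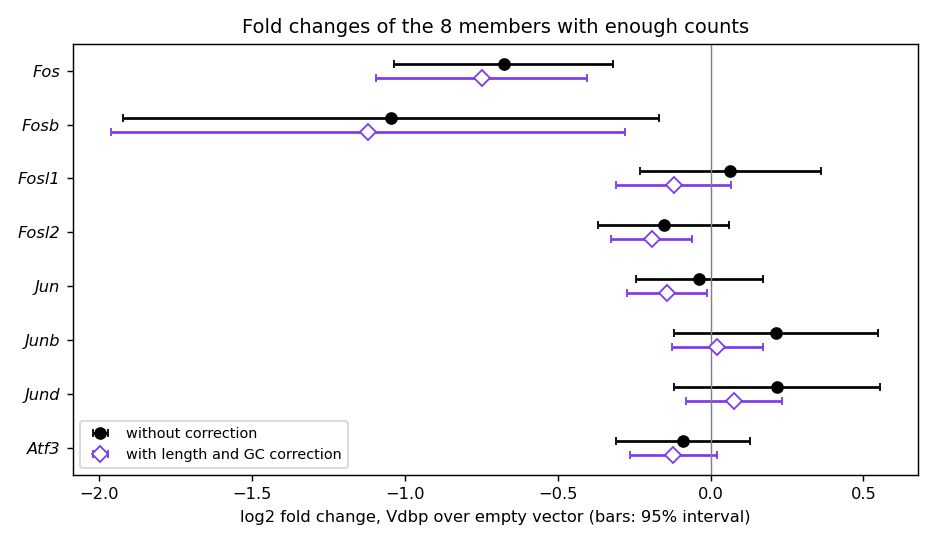
Log2 fold change, Vdbp over empty vector, of the 8 tested members with its 95% interval, from edgeR without (black circles) and with (open diamonds) removal of each library's trends on gene length and base composition. Fos and Fosb lie below 0 in both, and Junb and Jund move from 0.21 and 0.22 to 0.02 and 0.08 after it.

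Fos made up a smaller part of its subfamily in every Vdbp library. Of the summed FPKM of the 4 Fos genes, Fos held 14.9%, 24.7% and 23.9% in Vdbp replicates 1, 2 and 3, and 29.999%, 27.0% and 31.4% in empty-vector replicates 1, 2 and 3. The groups did not overlap. Fosl1 held 64.2%, 54.2% and 54.7% with Vdbp and 50.9%, 50.4% and 46.0% with empty vector, also without overlap, while Fosl2 held 20.5 ± 0.12% with Vdbp and 20.2 ± 2.02% with empty vector (SD, n = 3 each), and Fosb 0.69 ± 0.37% and 1.21 ± 0.56%. These shares follow from the same counts as the fold changes, and a lower Fos raises the others. In the Jun subfamily, Junb held 49.2 ± 2.67% with Vdbp and 46.7 ± 1.44% with empty vector, Jun 29.5 ± 2.45% and 33.3 ± 2.80%, and Jund 21.3 ± 0.22% and 19.9 ± 1.42% (SD, n = 3 each). Summed over the genes of each subfamily, the FPKM of Jun genes was 4.62, 4.61 and 4.11 times that of Fos genes in Vdbp replicates 1, 2 and 3, and 3.40, 3.33 and 4.02 times in empty-vector replicates 1, 2 and 3. The closest libraries of the groups in this ratio were thus the replicates 3.

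**Figure D3:**
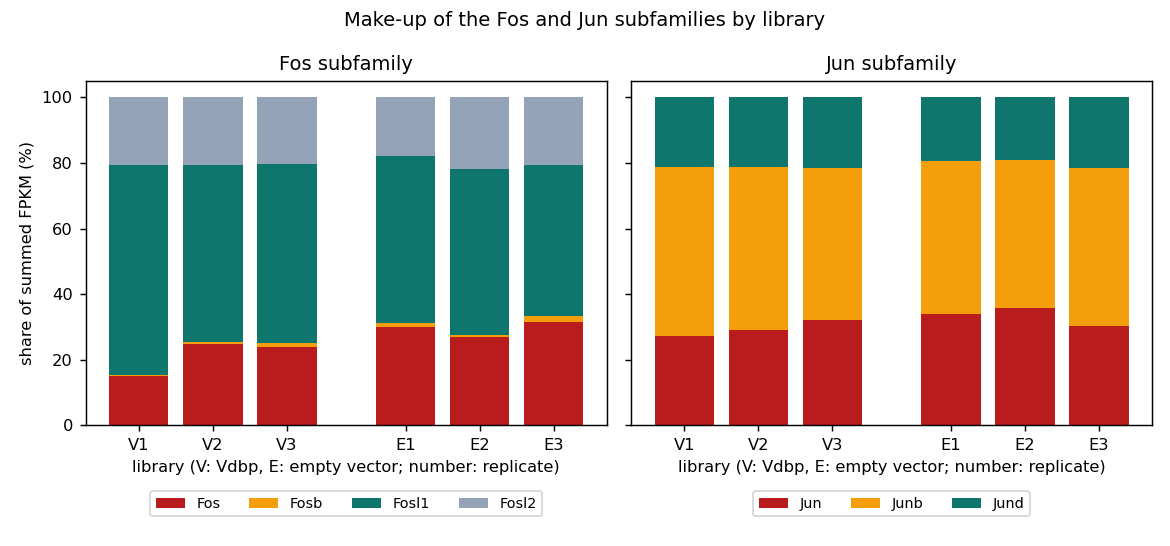
Share of each gene in the summed FPKM of the Fos subfamily (left) and of the Jun subfamily (right), as stacked bars of 1 library each, Vdbp replicates (V) and empty-vector replicates (E). The Fos segment is 14.9% to 24.7% with Vdbp and 27.0% to 31.4% with empty vector, and the Jun subfamily keeps its order, Junb over Jun over Jund, in all 6 libraries.

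Several members moved with the GC trend of the libraries. Jund and Junb are the most GC-rich members, at 67.1% and 62.6%, followed by Fosl1 at 59.9%, and the others lie between 51.2% and 56.2%. The library with the highest GC trend, Vdbp replicate 1, had the highest Junb, Jund and Fosl1, and the library with the lowest, empty-vector replicate 2, had the lowest Junb and Jund. Fos did not follow that order, being lowest in the library with the highest trend. In a further fit, curves on gene length and on base composition were removed from each library. They were fitted to the same 6 libraries and taken as known, so SEs and intervals after the correction leave out their uncertainty. The highest trend was in a Vdbp library and the lowest in an empty-vector library. The correction may therefore also remove part of a difference between the groups. Junb was then at 205, 214 and 187 CPM with Vdbp and at 200.1, 184 and 212 CPM with empty vector, and its log2 fold change was 0.02 (SE 0.07). That of Jund was 0.08 (SE 0.07), and that of Fosl1 turned to −0.12 (SE 0.09, interval −0.31 to 0.07).

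The difference in Fos was as large after this correction. Fos was then at 14.4, 24.3 and 23.5 CPM in Vdbp replicates 1, 2 and 3 and at 37.0, 30.01 and 37.0 CPM in the empty-vector replicates (log2 fold change −0.75, SE 0.16). Fosb had −1.12 (SE 0.39), and its groups still overlapped. For Jun the corrected levels were 161, 178 and 178 CPM with Vdbp and 194, 183 and 193 CPM with empty vector, without overlap, and the log2 fold change was −0.14 (SE 0.06, interval −0.27 to −0.01). That interval leaves out the uncertainty of the fitted curves. Fosl2 was also without overlap, at 84.2, 86.1 and 80.9 CPM with Vdbp and 89.5, 97.3 and 100.4 CPM with empty vector (−0.19, SE 0.06). Thus 3 members, Fos, Fosl2 and Jun, had lower corrected levels in every Vdbp library, against 877 of all tested genes (6.83%). In the higher direction the corrected levels did not overlap for 853 of 12844 genes. Members and correction were chosen with results of these data known, so nothing is read from these counts. edgeR with the correction called 0 members. Atf3 had −0.12 (SE 0.07).

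**Figure D4:**
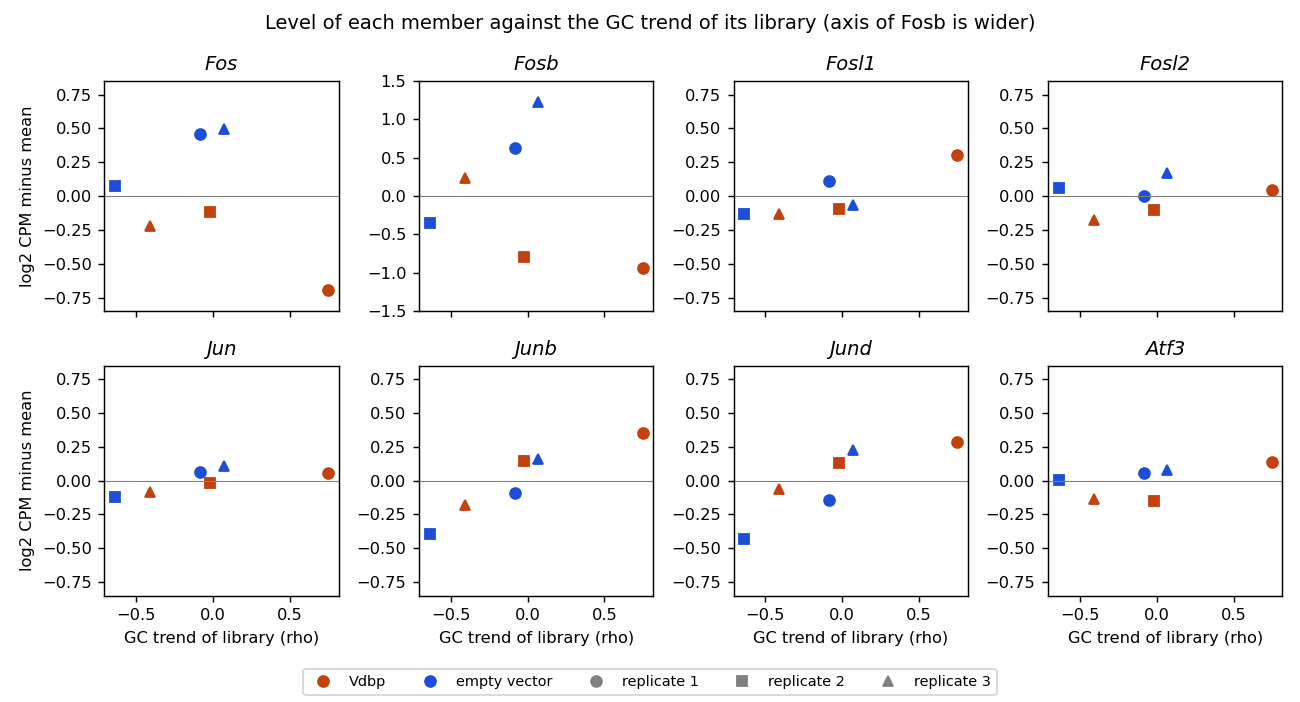
Level of each tested member in the 6 libraries, as log2 CPM minus its mean, against the GC trend of the library (Spearman's rho across genes). Junb and Jund climb along the axis from empty-vector replicate 2 on the left to Vdbp replicate 1 on the right, while the Vdbp points of Fos lie below the empty-vector points.

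In the 3′ untranslated regions, the pentamer ATTTA of AU-rich elements, which are bound by proteins that speed or slow the decay of a message, was counted in 1 annotated transcript per gene. Fosl2 had 8 copies in 4653 bases, Fos and Jun 4 each in 815 and 1233 bases, Egr2 and Atf3 3 each, Junb and Egr1 2 each, and Fosb, Fosl1 and Jund 1 each. At least 8 copies were found in 9.38% of 20746 genes with such a region, at least 4 in 25.7% and at least 1 in 62.7%. In Fos, on chromosome 12, 2 of the copies share a base in the run shown here, in the transcript's own direction, because overlapping copies are the classical form of the element.
Fos: ATTTATTTA

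The pathway around these factors was described with lists of genes chosen with earlier results of these data known. No member of any list was called by edgeR over all genes. Of 33 tested immediate early genes other than the members, 15 were above 0 and 18 below, with a median log2 fold change of −0.04. After the correction 24 were below 0 and the median was −0.11. The share below 0 and the median of all genes after the correction are not given here. Corrected values of this and the following lists thus have no background beside them. Mcl1, a survival protein and the most abundant, was at 949, 1074 and 1055 CPM with Vdbp and at 1125, 1140.1 and 1164 CPM with empty vector (−0.16, SE 0.09), without overlap. Ier5l, with the largest difference, was at 8.09, 5.38 and 7.35 CPM with Vdbp and at 5.29, 3.86 and 5.32 CPM with empty vector (0.52, SE 0.21). In the list 5 genes were lower without overlap (Mcl1, Klf10, Tnfaip3, Gadd45b and Myc) and 2 higher (Ier5l and Ier3), against 5.61% and 5.26% of all genes. Klf10 had a log2 fold change of −0.27 (SE 0.11), Tnfaip3 of −0.24 (SE 0.10) and Gadd45b of −0.22 (SE 0.10). Myc had −0.14 (SE 0.13) and Ier3, in the other direction, 0.15 (SE 0.10). Apart from Mcl1 and Ier5l, these genes were named after their values were seen.

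No gene among the inputs to the members was called. Of 25 tested genes in the MAP kinase list, 10 were above 0 and 15 below, with a median of −0.03, and −0.014 after the correction. The list also holds Creb1 (−0.10), Fbxw7 (−0.08) and Cop1 (−0.21), which are not kinases and are among those below 0. Creb1 is counted again among the ATF, CREB, Maf and Bach genes. Mapkapk2, a kinase downstream of p38 and the most abundant, averaged 711 ± 88.6 CPM with Vdbp and 639 ± 47.1 CPM with empty vector (0.15, SE 0.11), and Map2k2, a kinase that activates ERK, had 0.27 (SE 0.14), the largest difference. In this list 4 genes were lower without overlap and 2 higher, against 5.61% and 5.26% of all genes. Serum response factor and its partners had 5 of 6 tested genes above 0 and a median of 0.09, with the ternary complex factor Elk1 at 43.9 ± 4.41 CPM with Vdbp and 37.8 ± 2.00 CPM with empty vector (0.22, SE 0.11), and the co-activator Mkl1, the most abundant, at 109 ± 17.6 and 101 ± 4.51 CPM (SD, n = 3 each). After the correction the median of this list was 0.02, and without it 0 genes were lower and 1, Elk1, was higher without overlap. Of the other Egr and Nab genes 3 were tested, 1 above 0 and 2 below, with a median of −0.14, and −0.085 after the correction. The gene above 0 was Nab2, at 8.75 ± 1.34 CPM with Vdbp and 7.21 ± 0.75 CPM with empty vector (0.28, SE 0.17). Nab1, a co-repressor of Egr proteins, was at 80.2 ± 10.6 CPM with Vdbp and 88.3 ± 8.80 CPM with empty vector (−0.14, SE 0.12), and Egr3 at 0.675 ± 0.30 and 0.964 ± 0.33 CPM (−0.50, SE 0.42).

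Other partners and the AU-rich element binding proteins were also compared. Of 16 tested ATF, CREB, Maf and Bach genes 9 were above 0 and 7 below, with a median of 0.08, which the correction lowered to 0.01. Creb5, the most abundant, was at 423 ± 18.8 CPM with Vdbp and 437 ± 18.8 CPM with empty vector, and Bach2, with the largest difference, at 0.932 ± 0.20 and 0.703 ± 0.19 CPM (0.40, SE 0.37). Of the 8 AU-rich element binding genes 6 were above 0, with a median of 0.06, and 0.12 after the correction. Hnrnpd, the decay factor AUF1, averaged 96.3 ± 3.70 CPM with Vdbp and 81.9 ± 9.03 CPM with empty vector (SD, n = 3 each; log2 fold change 0.23, SE 0.10), without overlap, and Khsrp, the most abundant, at 211 ± 25.0 and 199.7 ± 12.9 CPM (0.08, SE 0.11).

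Genes known from other studies as targets of AP-1 or Egr proteins had 16 of 22 tested members below 0 and a median log2 fold change of −0.12, against −0.01 for all genes. After the correction their median was −0.14, with no value for all genes beside it. The list was chosen with results of these data known, among them the low Cxcl2 and Thbs1, so its direction is no independent evidence. Spp1, osteopontin and the most abundant, was at 7656, 9702 and 10425 CPM with Vdbp and at 11197, 12626 and 10082 CPM with empty vector, where the groups overlapped (−0.29, SE 0.13). Mmp13, a collagenase and a classical AP-1 target, had the largest difference, at 3.17, 4.78 and 4.73 CPM with Vdbp and 6.45, 6.82 and 5.26 CPM with empty vector (−0.55, SE 0.21). Without overlap there were 4 lower genes (Mmp13, Mmp12, Cxcl2 and Thbs1) and 1 higher, Ccnd1, against 5.61% and 5.26% of all genes. Heat shock and handling stress genes, which can be raised together with Fos when cells are handled, had 4 of 11 above 0 and a median of −0.05 (−0.0085 after the correction), with Hspa8 at 2484 ± 145 CPM with Vdbp and 2574 ± 257 CPM with empty vector and Hsf1 at 52.1 ± 5.96 and 46.0 ± 3.14 CPM (SD, n = 3 each). The part of handling in the level of Fos was not tested.

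Genes whose levels ran most like those of Fos and Jun over the 6 libraries were looked up among 9477 protein-coding genes with at least 5 CPM in both groups. For Fos these were Tent5c, a poly(A) polymerase, with a Pearson r of 0.998 between log2 levels, Gid4 (0.996), the antiproliferative gene Btg1 (0.978) and Nub1 (0.959), the largest of 9477 values. Tent5c was at 34.2, 37.5 and 37.2 CPM with Vdbp and at 40.9, 38.9 and 41.7 CPM with empty vector, the same order of libraries as Fos with a smaller range. Its log2 fold change was −0.16, that of Gid4 −0.21, that of Btg1 −0.23 and that of Nub1 −0.06. These genes were picked for running like Fos, which was lower in every Vdbp library, so their sign follows from the selection. For Jun they were Rccd1 (0.988), Dnajc17 (0.987), Ezr, the membrane linker ezrin (0.984), and Hyal1 (0.972), and Ezr was at 179.8, 174 and 170.1 CPM with Vdbp and at 178, 169 and 184 CPM with empty vector. These are descriptions over 6 libraries that share the group difference and the GC trend. Egr1, with 7 to 10 counts in a library, varied too little beyond counting error for such a list.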

How the data were processed

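Messenger RNA libraries of DC2.4 cells were sequenced, 3 labelled Vdbp and 3 with empty vector. Per the submitters' processing notes the authors used HISAT2 and StringTie; no version is listed. Which tool counted the reads, whether by strand, and on which genome build is not given in the sources used here. One deposited table has raw read counts by Ensembl gene. The deposited FPKM of the authors were these counts divided by gene length and by 1 constant per library, to within floating-point rounding. Of the identifiers, 99.9% were in GENCODE M21 (GRCm38); start and end were identical for 98.3% of those. GC content came from its transcripts and was found for 99.9% of tested genes.

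The count test was that of edgeR 4.0.16 under R 4.3.3, with filterByExpr (minimum count 10, total 15, proportion 0.7), TMM scaling, group alone in the design, and the quasi-likelihood test, two-sided, adjusted by Benjamini-Hochberg over all tested genes, threshold 0.05. CPM are scaled by TMM; errors are SDs over 3 libraries. Intervals of count ratios cover counting error only. Alternatives, including DESeq2 1.42.0, limma 3.58.1 and a length and GC offset fitted with mgcv 1.9.3, are given in the closing section. The fit was also run on simulated counts that had no length or GC trend between libraries, so that run does not cover such trends.

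The members, lists, motifs and alternatives were chosen with earlier results of these data known. The naming rule took the 10 members, in each list the most abundant gene and the gene with the largest difference (called genes, had there been any), and the 4 genes most like Fos, Jun and Egr1. Other genes of the lists were named after their values were seen. A comparison of the proteins was planned and not run.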

Additional observations from a re-analysis of the deposited data

How the results depend on the processing

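The 18 alternatives of the fit left the sign of the log2 fold change as it was in all 18 for Fos (−0.80 to −0.52), Fosb (−1.504 to −0.30), Fosl2 and Atf3. The sign turned for Fosl1 with the length and GC offset (−0.12), without Vdbp replicate 1 (−0.086) and without both end libraries of the main axis of variation, Vdbp replicate 1 and empty-vector replicate 2 (−0.14). In that last setting Junb (−0.051) and Jund (−0.015) also turned, 8 of 8 members were below 0, against 5, and their median was −0.18, against −0.06. Jun ranged from −0.10 to 0.0097 when 1 library was left out, and turned without empty-vector replicate 3. Leaving out 1 library at a time gave 4 to 6 members below 0, 0 members called, and 0 to 22 genes called.

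edgeR called 2 members, Fos and Fosb, and 89 genes with no filter on low counts, and DESeq2 called 11 genes, the length and GC offset 2 and the fit without both end libraries 2, none of them members. The number of genes tested with no filter is not given here, so the 89 genes are without a share. The cause was not tested. The unadjusted count of 687 genes was 1185 with the offset, 1375 with no filter, and 258 to 1532 when 1 library was left out, the fewest without empty-vector replicate 2 and the most without Vdbp replicate 3. The 22 called genes came without empty-vector replicate 3. With the replicate number as a block, edgeR called 0 genes and 0 members, with 695 genes at an unadjusted p under 0.05. Same-numbered libraries of the groups correlated at 0.14, 0.03 and −0.27 across genes in their deviations, so the numbers were not taken as pairs. As shares of counts rather than FPKM, the leading Fos gene was Fosl2 in place of Fosl1. Fosl2 held 56.5% of counts with Vdbp and 54.8% with empty vector, Fosl1 28.1% and 23.6%, and Fos 14.2% and 19.5%. The order of Junb over Jun also rests on FPKM. By counts Jun was above Junb in empty-vector replicates 1 (3072 against 3058) and 2 (2759 against 2519), and below it in the other libraries. The depth limits Egr1, Egr2 and Fosb most.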
